A study of Homo sapiens with 8 samples.

Results

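With the solvent DMSO, the introns of MAD1L1, GSE1, RXRA and ZC3H3 held more IGF2BP1 peaks than those of any other protein-coding gene, the gene ENSG00000286192 aside, which is annotated over MAD1L1. The members are the peaks that lie on the strand of one of these 4 genes, within its GENCODE release 44 boundaries, in either of 2 deposited peak lists. The genes were chosen by their number of intron peaks in the DMSO list, so that number is a description and carries no test. Of the 22311 peaks of the DMSO list, 350 lay in the 4 genes, 341 of them in introns and 9 over an exon of any transcript of the gene. Of the 22123 peaks of the AVJ16 list, 80 lay in the 4 genes, 73 in introns and 7 over exons. Over both lists this gives 414 intron peaks of 44434 peaks. ZC3H3, the last gene inside the choice, had 39 DMSO intron peaks, and PLXNA1, the next gene outside it, had 25.

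The study used H1299, a human lung cancer cell line with high endogenous IGF2BP1. Cells were treated for 24 h with 1.5 µM AVJ16, a small molecule inhibitor of IGF2BP1, or with 0.01% DMSO, and were then crosslinked with 400 mJ/cm2 of UV light at 254 nm. Each treatment had 2 immunoprecipitated (IP) libraries and 2 size-matched input (SMInput) libraries, and the deposited list of a treatment joins both of its replicates. The lists therefore hold 1 value per peak and no value per replicate, and no spread between replicates can be given for any value here.

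IGF2BP1 is an RNA-binding protein with RRM and KH domains that is found mostly in the cytoplasm, where it is best known for binding the 3′UTR of mRNAs and protecting them from decay. In eCLIP, UV light links the protein to the RNA it touches, the complex is pulled down with an antibody, and the RNA fragments are sequenced beside an SMInput made without pull-down. The value of a peak is its log2 fold enrichment of IP over SMInput reads, and both lists hold only peaks above 3 on this scale. Introns are removed from the pre-mRNA in the nucleus by splicing and are not part of the mature mRNA. MAD1L1 encodes MAD1, the spindle checkpoint protein that recruits MAD2 to unattached kinetochores. GSE1 encodes a coiled-coil protein of the BRAF-HDAC (CoREST) corepressor complex, RXRA the nuclear receptor that pairs with RAR, PPAR, VDR and other receptors, and ZC3H3 a CCCH zinc finger protein of poly(A) RNA export.

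The sequences below are those of the most enriched DMSO peak and of the shared peak with the largest loss of enrichment in MAD1L1, GSE1 and RXRA. They are extremes and need not be typical, as the MAD1L1 peaks, at 48.8% and 47% GC, lay below that gene's median of 63.4%. No ZC3H3 sequence is shown. All are given on GRCh38, 5′ to 3′ on the strand of the RNA, as DNA letters. A shared peak is one that overlaps a peak of the AVJ16 list by at least 1 nt. Capitals mark each run of 3 or more G. The last line gives, for contrast, only the middle 30 bases of the most enriched DMSO peak in the GSE1 3′UTR, which has 81 nt. These 30 bases have 36.7% GC, against 45.7% for the whole peak, so they are not a like comparison with whole intron peaks. They hold no run of 3 or more G. The 9 DMSO exon peaks of the 4 genes had, over their whole length, 1.88 such runs per 100 nt, against 4.01 in the intron peaks and 2.27 in the rest of the same introns.
MAD1L1 intron 18, minus strand, chr7:1892598-1892681, most enriched: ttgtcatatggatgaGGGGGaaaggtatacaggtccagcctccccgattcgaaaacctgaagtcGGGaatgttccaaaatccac
MAD1L1 intron 13, minus strand, chr7:2010473-2010572, shared: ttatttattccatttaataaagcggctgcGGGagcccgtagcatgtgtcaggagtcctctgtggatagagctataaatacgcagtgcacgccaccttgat
GSE1 long-transcript intron 2, plus strand, chr16:85452493-85452583, most enriched: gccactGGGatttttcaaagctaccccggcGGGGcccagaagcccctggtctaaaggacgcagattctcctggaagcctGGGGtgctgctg
GSE1 intron 2, plus strand, chr16:85635214-85635338, shared: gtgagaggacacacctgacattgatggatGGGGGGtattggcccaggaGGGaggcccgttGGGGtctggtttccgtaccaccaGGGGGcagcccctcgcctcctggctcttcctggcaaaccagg
RXRA intron 1, plus strand, chr9:134360799-134360900, most enriched: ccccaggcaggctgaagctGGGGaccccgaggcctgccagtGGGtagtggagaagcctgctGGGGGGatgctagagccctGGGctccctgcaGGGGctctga
RXRA intron 1, plus strand, chr9:134329408-134329467, shared: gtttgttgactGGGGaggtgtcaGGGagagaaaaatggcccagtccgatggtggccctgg
GSE1 3′UTR, plus strand, chr16:85675883-85675912, middle of a peak: tttccatccagtgcttaacctaaaaaactc

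The RXRA peak had 5 runs of G over 102 nt and a GC content of 69.6%. Its log2 fold enrichment of 5.07 was the highest of all 341 DMSO intron peaks of the 4 genes, with a −log10 p of 15.7. The GSE1 peak had 3 runs over 91 nt, a GC content of 61.5% and an enrichment of 5.02. The MAD1L1 peak differed in base content, with 2 runs over 84 nt, a GC content of 48.8% and an enrichment of 4.96. None of the 3 overlapped a peak of the AVJ16 list.

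The intron peaks of each gene lay in only some of its introns, mostly the longer ones. Introns were numbered from the 5′ end on the MANE Select transcript, the reference transcript of a gene, and for GSE1 peaks upstream of it on the coding transcript with the longest span, here called the long transcript. Intron 2 of the long transcript runs up to MANE exon 1 for this purpose. The shortest intron with a DMSO peak had 5526 nt in GSE1, 8038 in RXRA and 28357 in ZC3H3. The longest MANE intron without one was shorter in each, with 3541, 7302 and 24596 nt. In MAD1L1 the shortest with a DMSO peak had 12380 nt and the longest without one 22733 nt.

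MAD1L1 (ENSG00000002822, chr7:1815793-2233243, minus strand) has 18 MANE introns, and 8 of them held a DMSO intron peak. Introns 1 to 9, none of them over 4433 nt, held no peak of either list. Intron 11, of 79.8 kb, held 38 DMSO and 11 AVJ16 peaks, and intron 18, of 82.0 kb, held 28 and 4. The densest was intron 13, of 12.4 kb, with 11 DMSO peaks or 8.89 per 10 kb. Intron 15, of 22.7 kb, held no peak of either list. Intron 10, of 64.0 kb, held 3 DMSO peaks. All 112 DMSO and 32 AVJ16 intron peaks of MAD1L1 also lie within ENSG00000286192, a protein-coding gene annotated over the same introns on the same strand, so the lists cannot say to which gene they belong.

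GSE1 (ENSG00000131149, chr16:85169525-85676204, plus strand) held 97 DMSO intron peaks. Of these, 62 lay in intron 2 of the long transcript, a stretch of 255.7 kb before the MANE transcript, which makes 63.9% of the gene's DMSO intron peaks. A further 15 lay in intron 1 of the long transcript. The MANE introns 1, 2 and 3 held 9, 10 and 1 DMSO peaks, and the 12 introns after them, of at most 3541 nt, held none in either list. In the same order, the AVJ16 list had 15, 1, 2, 2 and 0 peaks. The lncRNA ENSG00000287787 spans 10 of the DMSO peaks and 1 AVJ16 peak on the same strand, and 1 DMSO peak lies over an exon of the lncRNA ENSG00000260417.

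RXRA (ENSG00000186350, chr9:134317098-134440585, plus strand) concentrated its peaks in 1 intron. Intron 1, of 74972 nt, held 89 of the 93 DMSO intron peaks and all 12 AVJ16 intron peaks. At 11.9 DMSO peaks per 10 kb it was the densest intron of the 4 genes. The other 4 DMSO peaks lay in intron 4, of 8038 nt, and the other 7 introns held none.

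ZC3H3 (ENSG00000014164, chr8:143437659-143541447, minus strand) held 21 DMSO peaks in intron 3, of 28.4 kb, and 18 in intron 4, of 32.2 kb. The AVJ16 list had 5 peaks in intron 3, 3 in intron 4 and 1 in intron 5, where the DMSO list had none. Intron 9, of 24.6 kb, was nearly as long as intron 3 and held no peak of either list. Its GC content was 49.0%, against 61.7% for intron 3 and 60% for intron 4. In MAD1L1, introns 10 and 15, with 3 and 0 DMSO peaks, had a GC content of 50.1% and 51.9%, the lowest of that gene's 18 introns, while the dense intron 13 had 60.3%. Other introns did not follow this order. MAD1L1 introns 14 and 17, with 57.2% and 57.5% GC, held 1 and 3 DMSO peaks, while intron 11, with 57.3%, held 38, and intron 12, with 53.8%, held 16. RXRA introns 2 and 6, with 63.02% and 62.4% GC, held none, and intron 1, with 62.3%, held 89.

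**Figure D1:**
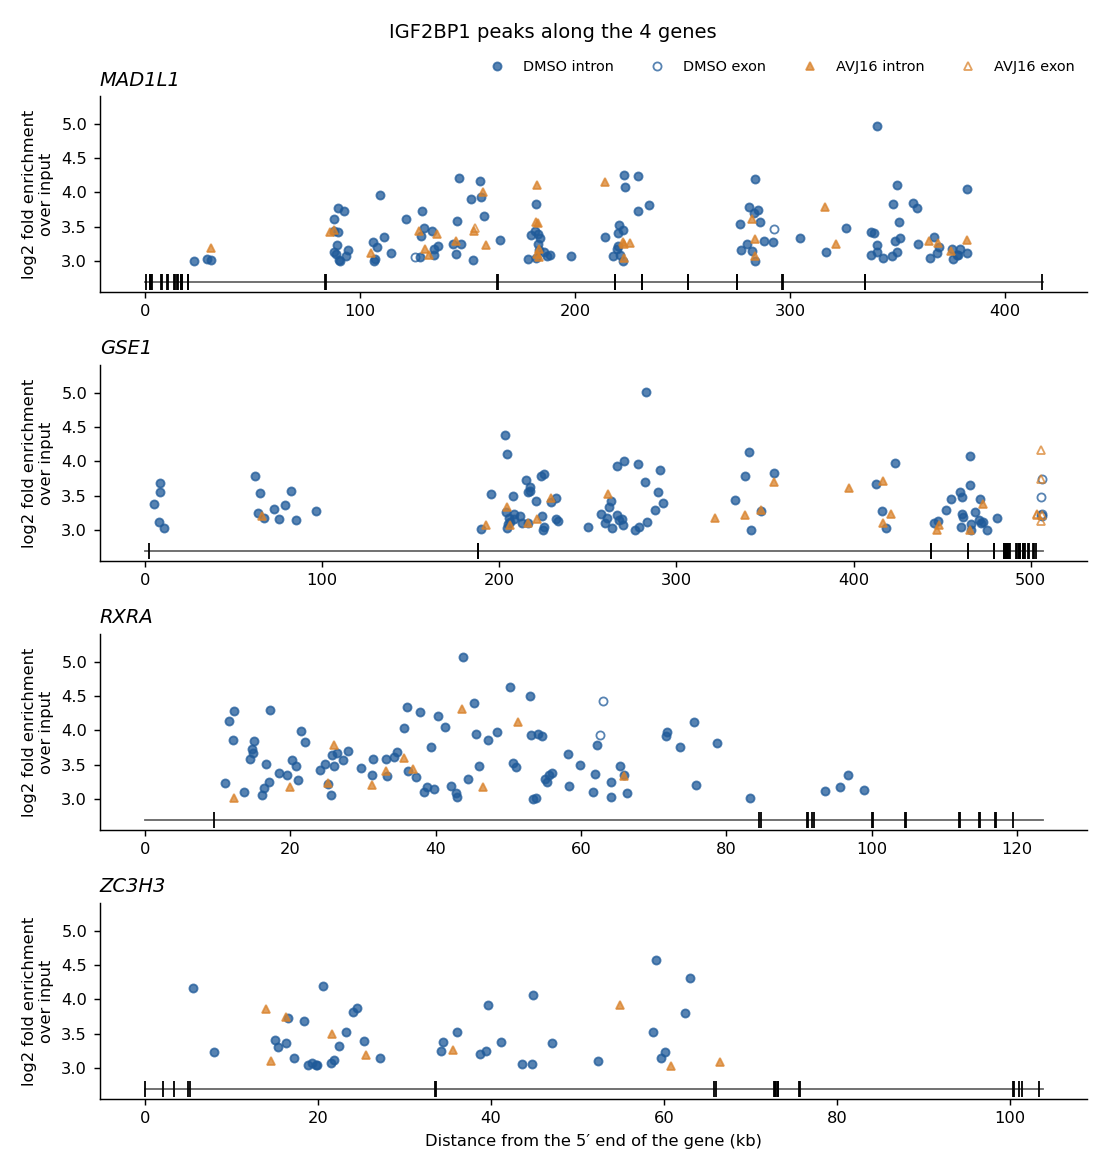
Peaks of both lists along the 4 genes, with the distance from the 5′ end of the gene in kb on the x axis and the log2 fold enrichment over SMInput on the y axis. Filled symbols are intron peaks, open symbols exon peaks, and black ticks on the grey line mark exons of the MANE transcript and, for GSE1, of the long transcript. The RXRA peaks fill intron 1, and the MAD1L1 peaks start only after the first 9 introns.

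**Figure D2:**
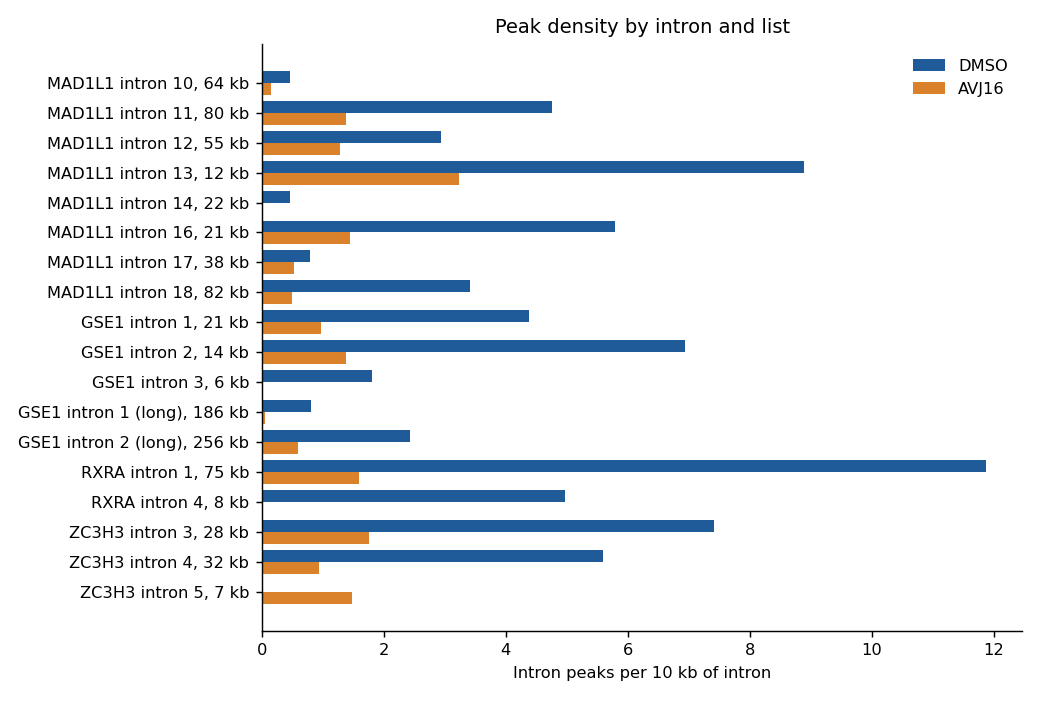
Intron peaks per 10 kb of intron for every intron that held a peak, by list, with the intron length beside its name. Introns marked long belong to the long transcript of GSE1. RXRA intron 1 had 11.9 DMSO peaks per 10 kb against 1.60 in the AVJ16 list.

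Most genes at least as long as these held no DMSO intron peak, as was the case for protein-coding genes as a whole. Over all 20020 protein-coding genes, 282 (1.41%) held one. Whether the genes are expressed in H1299 was not tested. Of 474 other protein-coding genes at least as long as MAD1L1, 461 (97.3%) held no DMSO intron peak. Of 312 at least as long as GSE1, 303 (97.1%) held none, and the most found among the others was 8, in SMYD3. For the shorter RXRA and ZC3H3, 2775 of 2855 and 3405 of 3500 genes of at least their length held none. Together the 4 genes held 26.6% of the 1281 DMSO intron peaks of all genes (95% Wilson interval 24.3 to 29.1) and 15.0% of the 486 AVJ16 intron peaks (12.1 to 18.5). Peaks of 1 intron come from 1 kind of transcript and are not independent, so these intervals, like those below, cover counting error only.

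The peaks stood on 1 strand. No peak of either list lay on the opposite strand within any of the 4 genes. Of the 414 intron peaks, 18 lay within 500 nt of an exon of any transcript of the gene, 8 in MAD1L1, 1 in GSE1, 6 in RXRA and 3 in ZC3H3. The share of the intron sequence that lies this close to an exon was not measured, so the number cannot be called low or high.

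Exon peaks were rare and differed in kind. All 5 DMSO and all 6 AVJ16 exon peaks of GSE1 lay in its 3′UTR. The 2 DMSO exon peaks of MAD1L1 and the 2 of RXRA lay over exons of other transcripts that fall inside introns of the MANE transcript, as did the 1 AVJ16 exon peak of MAD1L1, and ZC3H3 had no exon peak. No peak touched a MANE exon of MAD1L1, RXRA or ZC3H3. The 9 DMSO exon peaks had a median GC content of 45.7%, against 64.1% for the 341 intron peaks. They were mixed, with a median of 33.8% for the 5 in the GSE1 3′UTR. The DMSO exon peaks of MAD1L1 had 48.3% and 61.6%, and those of RXRA 62.3% and 50%.

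Enrichment at the intron peaks was modest. The median log2 fold enrichment of the 341 DMSO intron peaks was 3.35, with a range of 3.00 to 5.07, and 220 of them (64.5%) were below 3.5. Introns of other genes had the same median, 3.35 over 940 peaks, and all peaks of the list had 3.63. Against the 9 exon peaks of the 4 genes, the intron median was lower by a difference of -0.12, and against the exon peaks of all genes by -0.31. Within GSE1 the order was the reverse, with 3.24 over 5 exon peaks and 3.26 over 97 intron peaks. It was also the reverse for the 4 genes in the AVJ16 list, with 3.24 over 7 exon and 3.27 over 73 intron peaks. By gene, the median of the DMSO intron peaks was 3.26 in MAD1L1, 3.26 in GSE1, 3.48 in RXRA and 3.37 in ZC3H3. RXRA had 13 intron peaks at 4 or more, MAD1L1 9, GSE1 6 and ZC3H3 5. The most enriched ZC3H3 peak, chr8:143482275-143482319 in intron 4, reached 4.57.

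Significance was lower than in the lists as a whole, as it was in introns of other genes. The median −log10 p of the DMSO intron peaks was 6.98, with a maximum of 24.0 in MAD1L1, against 12.7 for all DMSO peaks. For the 73 AVJ16 intron peaks it was 4.94, against 13.2 for all AVJ16 peaks. Intron peaks of other genes had a median of 6.22 with DMSO, below that of the 4 genes, and of 5.94 with AVJ16, above it. The intron peaks of the 4 genes in the AVJ16 list had a median log2 fold enrichment of 3.27 and a maximum of 4.32, at chr9:134360669-134360713 in RXRA intron 1, just before the most enriched DMSO peak of that intron.

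The peaks were spread as single sites, not as runs of touching peaks. Peaks of an intron that touch or overlap were joined into sites, which gave 335 DMSO sites, 329 of them of 1 peak and 6 of 2 peaks. The longest site was 223 nt, in MAD1L1. The gap between the ends of neighbouring sites had a median of 852 nt over 318 gaps (95% interval from order statistics 673 to 987), and 177 of the gaps (55.7%) were at most 1000 nt.

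RXRA sites were the closest, with a median gap of 475 nt (385 to 596), followed by ZC3H3 with 668 nt (406 to 1063), MAD1L1 with 1009 nt (845 to 1252) and GSE1 with 1540 nt (934 to 2204). The interval of RXRA lay below those of MAD1L1 and GSE1, and all other pairs of intervals overlapped. Even within an intron the spacing was uneven. In the long-transcript intron 2 of GSE1 the 62 sites had a median gap of 1302 nt and a longest gap of 57044 nt. In MAD1L1 intron 13, 10 sites had a median gap of 245 nt and a longest gap of 6088 nt. In the AVJ16 list the median gap over the 4 genes was 4906 nt, over 56 gaps.

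Fewer intron peaks were listed with AVJ16 in each of the 4 genes. MAD1L1 had 112 DMSO and 32 AVJ16 intron peaks, GSE1 97 and 20, RXRA 93 and 12, and ZC3H3 39 and 9. The AVJ16 number was thus 28.6%, 20.6%, 12.9% and 23.1% of the DMSO number, while for all peaks it was 99.2% and for introns of other genes 43.9%, with 940 DMSO and 413 AVJ16 peaks. Since the genes were chosen on the DMSO number alone, a lower number in the other list is partly given by the choice. The 18 other protein-coding genes with at least 10 DMSO intron peaks, which share this choice, had 271 DMSO and 99 AVJ16 intron peaks, or 36.5%. Of these 18, 17 had fewer AVJ16 than DMSO peaks, and their AVJ16 number ranged from 6.25% to 157% of the DMSO number, with a median of 30%. PLXNA1 had 25 and 3, SBNO2 22 and 12, and BAIAP2 19 and 2. The values of the 4 genes lie within this range, and 8 of the 18 were at or below the value of MAD1L1.

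Few of the DMSO positions were listed again. Of the 341 DMSO intron peaks, 25 (7.33%, Wilson interval 5.01 to 10.6) overlapped an AVJ16 peak by at least 1 nt on the same strand, where 66.2% of all DMSO peaks did. Of the 73 AVJ16 intron peaks, 25 (34.2%, 24.4 to 45.7) overlapped a DMSO peak, where 70.8% of all AVJ16 peaks did. By gene, the DMSO peaks shared were 10 of 112 in MAD1L1 (8.93%), 7 of 97 in GSE1 (7.22%), 7 of 93 in RXRA (7.53%) and 1 of 39 in ZC3H3 (2.56%), with intervals that all overlapped. Introns of other genes shared 178 of 940 DMSO peaks (18.9%, 16.6 to 21.6), above the interval of the 4 genes. Seen from the AVJ16 list, they shared 179 of 413 peaks (43.3%, 38.6 to 48.2), which overlapped the interval of the 4 genes. The share of DMSO peaks is limited by how many AVJ16 peaks there are, 73 for 341 DMSO peaks in the 4 genes and 413 for 940 in introns of other genes, so the difference on the DMSO side, also within the ranges that follow, cannot be told apart from the lower AVJ16 number. Among the 18 other genes with at least 10 DMSO intron peaks, 53 of 271 were shared (19.6%, 15.3 to 24.7). Of the 9 DMSO exon peaks of the 4 genes, 4 were shared, all in the GSE1 3′UTR.

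The share was below that of other introns in all 4 ranges of enrichment, with intervals that did not overlap in 2 of them. At 3 to 3.25, 6 of 140 intron peaks of the 4 genes were shared (4.29%, 1.98 to 9.03), against 46 of 360 in introns of other genes (12.8%, 9.72 to 16.6) and 1414 of 3038 in 3′UTRs (46.5%). At 3.5 to 4 it was 4 of 88 (4.55%, 1.78 to 11.1) against 44 of 235 (18.7%, 14.3 to 24.2). In these ranges the intervals of the introns did not overlap. At 4 or more it was 6 of 33 (18.2%, 8.61 to 34.4) against 44 of 103 (42.7%, 33.6 to 52.4) and 87.3% of 5539 3′UTR peaks. In this range the intervals of the introns overlapped. They also did from 3.25 to 3.5, with 9 of 80 (11.3%, 6.03 to 20.02) against 44 of 242 (18.2%, 13.8 to 23.5).

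By significance, the share was lower in both ranges of −log10 p from 5 to 20. At 5 to 10, 12 of 227 intron peaks of the 4 genes were shared (5.29%, 3.05 to 9.01), against 67 of 408 in other introns (16.4%, 13.1 to 20.3). At 10 to 20 it was 10 of 63 (15.9%, 8.86 to 26.8) against 65 of 174 (37.4%, 30.5 to 44.7). At 3 to 5 the shares were 3 of 50 (6.00%) and 23 of 311 (7.40%), with overlapping intervals. A position below the limits of a list has no value in it, so a DMSO peak without an AVJ16 partner may still have had IP reads above SMInput with AVJ16.

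**Figure D3:**
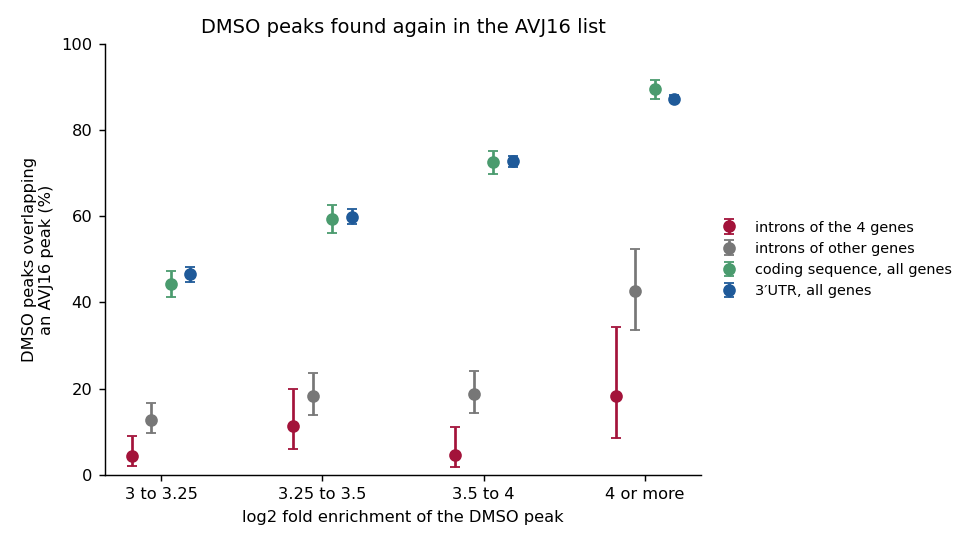
Share of DMSO peaks that overlap an AVJ16 peak, in percent, by the log2 fold enrichment of the DMSO peak, for introns of the 4 genes, introns of other genes, coding sequence and 3′UTR. Bars are 95% Wilson intervals. The introns of the 4 genes have the lowest share in every range, from 4.29% at 3 to 3.25 to 18.2% at 4 or more.

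Most unshared DMSO peaks were not near an AVJ16 peak either. Of 316 unshared DMSO intron peaks, 10 lay within 100 nt and 87 within 1000 nt of an AVJ16 intron peak of the same gene, and the median distance was 2182 nt. The unshared AVJ16 peaks were closer to the DMSO peaks, which are more numerous. Of 48, 38 lay within 1000 nt of a DMSO intron peak, and the median distance was 450.0 nt.

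At the 25 shared intron peaks the enrichments of the lists were similar in most cases. The median difference, AVJ16 minus DMSO, was -0.15 on the log2 scale (interval -0.30 to 0.00), with a range of -1.27 to 0.38 and 17 of 25 below 0. A difference of more than 0.5, the limit of the study, was found downwards at 6 of 25 (24.0%), against 20.1% of all shared DMSO peaks, and upwards at 0 of 25, against 12.6%. No test of single peaks was possible, since the lists hold 1 value per peak. A DMSO peak listed near the lower limit of 3 could be shared only where its AVJ16 value was above 3 too, so the largest falls can occur only at highly enriched DMSO peaks.

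In RXRA the largest fall was at chr9:134329408-134329467 in intron 1, printed above, from 4.28 with DMSO to 3.01 with AVJ16. It was also the most enriched shared peak of the gene. The largest rise in RXRA, at chr9:134343106-134343131, was from 3.48 to 3.79. The other 5 shared RXRA peaks differed by -0.44 to 0.01, so the fall stood alone in this gene.

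In MAD1L1 the largest fall, at chr7:2010473-2010572 in intron 13, was from 4.25 to 3.05. The next largest, in intron 16 at chr7:1949537-1949662, was from 4.19 to 3.32. The largest rise in MAD1L1, at chr7:2050416-2050520 in intron 12, was from 3.251 to 3.56. Of the 10 shared MAD1L1 peaks, 7 were lower with AVJ16 and 3 higher.

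In GSE1 the largest fall, at chr16:85635214-85635338 in intron 2, was from 4.08 to 3.00. The most enriched shared GSE1 peak, chr16:85373982-85374022 in intron 2 of the long transcript, went from 4.11 to 3.33. The largest rise in GSE1 was 0.05, at a peak of 5 nt. ZC3H3 had 1 shared peak, chr8:143525078-143525126 in intron 3, at 3.37 with DMSO and 3.74 with AVJ16, the largest rise of the 25. The DMSO peak, of 49 nt, and the AVJ16 peak, of 58 nt, overlapped by only 10 nt. Their GC content was 71.4% and 50%, so the values belong to largely different stretches and are not a change at 1 site.

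**Figure D4:**
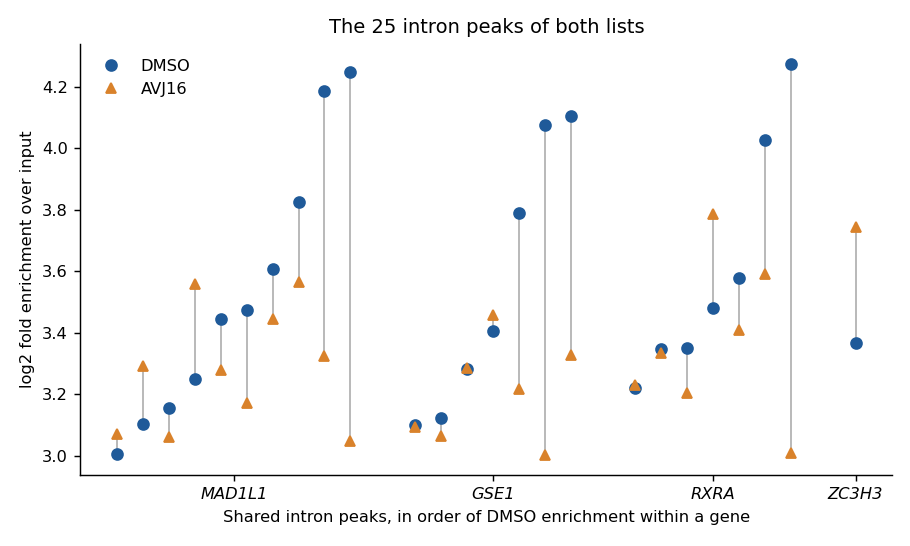
Log2 fold enrichment over SMInput of the 25 shared intron peaks with DMSO (circles) and at the overlapping AVJ16 peak (triangles), ordered within each gene by the DMSO value. The 6 peaks that fell by more than 0.5 all had a DMSO value of at least 3.79.

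The peaks were richer in GC than the introns around them. Each gene's introns with a DMSO peak were tiled with windows of the gene's median peak length, 59 to 69 nt, outside all peaks and exons. The median GC content was 64.1% over the 341 peaks (63.3 to 64.9) and 59.02% over 14441 windows, a difference of 5.05 percentage points. The difference was 6.00 in MAD1L1 (63.4% against 57.4%), 5.07 in GSE1 (63.0% against 58.0%), 2.62 in ZC3H3 (65.3% against 62.7%) and 1.28 in RXRA (64.9% against 63.6%). Against windows within 2000 nt of a peak it was 2.72 in MAD1L1, 3.62 in GSE1, 2.62 in ZC3H3 and 2.79 in RXRA, with a pooled value of 3.41. The wider spread between the genes with windows of whole introns was thus not found with nearby windows. Intron peaks of other genes had a median of 61.8%, and 3′UTR peaks of all genes 40.3%.

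The surplus was in G and not in C. Over the 4 genes, G made up 36.4% of the bases of DMSO intron peaks and 29.2% of the windows, while C made up 27.3% and 27.5%. The share of G was 35.0% in MAD1L1 peaks against 28.5% in its windows, 35.1% against 28.7% in GSE1, 39.0% against 33.5% in RXRA and 37.2% against 32.3% in ZC3H3. The difference by gene, 4.90 to 6.52 percentage points, was smaller than over the 4 genes pooled, where MAD1L1 and GSE1 gave most windows. Peaks held 4.01 runs of 3 or more G per 100 nt and windows 2.27, while runs of 3 or more C stood at 2.19 and 2.08. CpG was near equal, at 3.12 and 2.83 per 100 nt. The 73 AVJ16 intron peaks had 37.8% G and 25.6% C. Intron peaks of other genes also had more G (33.5%) than C (26.2%), whereas 3′UTR peaks had 18.5% G and 23.2% C, so more G than C was found in intron peaks of other genes as well.

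**Figure D5:**
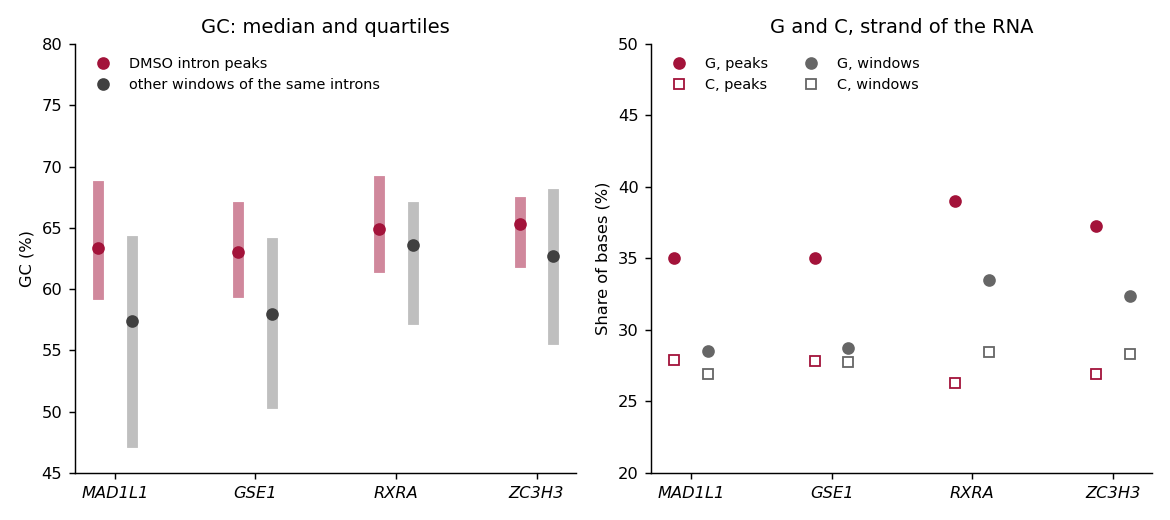
Left, GC content in percent of DMSO intron peaks and of the other windows of the same introns, with the median as a point and the quartiles as a bar. Right, share of G and C on the strand of the RNA. In all 4 genes the G share of the peaks is above that of the windows by 4.90 to 6.52 percentage points.

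Shared and unshared peaks had like composition. The median GC content was 64.0% for the 25 shared and 64.1% for the 316 unshared DMSO intron peaks, and the share of G was 35.9% and 36.4%. The shared peaks had a median length of 73.0 nt against 64.0 nt, and a median −log10 p of 8.87 against 6.90.

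Motifs named for IGF2BP1 were searched on the strand of the RNA in windows of the gene's median peak length centred on the 341 DMSO peaks and in the 14441 tiled windows. UUUCCGAA was in 0 peak windows, which allows up to 0.88% by 3 counts, and in 2 tiled windows. UCCAG was in 12.6% of peak windows and 12.6% of tiled windows, CCNGUU in 4.11% and 5.30%, GNGGCCC in 9.68% and 4.73%, and UCCUNNUGG in 0.59% and 0.96%. These values pool genes that differed. UCCAG was in 8.93% and 11.7% in MAD1L1, 9.68% and 12.1% in RXRA, 17.5% and 13.8% in GSE1, and 17.9% and 9.60% in ZC3H3. GNGGCCC was in 9.82% and 3.68% in MAD1L1, 10.3% and 5.04% in GSE1, 9.68% and 7.38% in RXRA, and 7.69% and 6.00% in ZC3H3. GGAC, the core of the consensus for adenosine methylation in mRNA, was in 34.3% (29.5 to 39.5) and 21.4% (20.8 to 22.1). By gene it was in 33.9% and 19.7% in MAD1L1, 40.2% and 22.6% in GSE1, 30.1% and 23.8% in RXRA, and 30.8% and 20.5% in ZC3H3. GGAC was not compared between windows of like GC content, although the peaks are richer in G, and methylation was not measured. CAU, a short sequence bound by IGF2BP proteins, was in 47.2% (42.0 to 52.5) and 53.4% (52.6 to 54.2). GGGG, added after the sequences were seen, was in 64.8% (59.6 to 69.7) and 34.3% (33.6 to 35.1), and in RXRA in 80.6% against 50.2%. GGGG can overlap GNGGCCC and GGAC, and a motif match is a description of the letters only.

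The difference in GGGG was also present between windows of like GC content. At 60 to 70% GC, 67.5% of 194 peak windows and 47.0% of 5261 tiled windows held GGGG, and at 50 to 60% it was 50% of 80 and 29.2% of 4770. The predicted minimum free energy of folding had a median of -32.9 kcal/mol per 100 nt in peak windows and -26.5 in tiled windows. By gene it was -32.9 and -25.2 in MAD1L1, -30.9 and -26.4 in GSE1, -33.9 and -32.3 in RXRA, and -34.1 and -29.5 in ZC3H3. MAD1L1 and GSE1 gave 5754 and 6740 of the 14441 tiled windows, so the pooled values also hold differences between genes. At 60 to 70% GC the medians were closer, at -34.3 and -32.7, and at 50 to 60% they were -27.2 and -25.1.

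Exact sequence shared between sites was short. The longest stretch shared by different DMSO sites of a gene was 13 nt in MAD1L1, 14 in GSE1, 13 in RXRA and 14 in ZC3H3. Of the 335 sites, 129 (38.5%, 33.5 to 43.8) shared a stretch of 12 nt with another site of any of the 4 genes. Of these, 51 shared one with a site of the same gene. Of the tiled windows, 25.2% shared one with a site. The sites vary in length up to 223 nt and are richer in G, and the windows have 59 to 69 nt. The shares of sites and windows are therefore not a like comparison.

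Among the other genes of the same pathways 1 had an intron peak. Over all 20020 protein-coding genes, 282 (1.41%) held an intron peak with DMSO and 187 (0.93%) with AVJ16, so a list of this size is near the background. Of 11 spindle checkpoint genes beside MAD1L1, none held an intron peak in either list. Of 15 RXR family members and partner receptors, only RARG, a retinoic acid receptor, did, with 1 intron peak in the DMSO list. None of the 11 genes of the BRAF-HDAC complex held an intron peak, and none of the 11 CCCH and poly(A) export genes did.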

How the data were processed

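IGF2BP1 eCLIP of H1299 cells gave IP and SMInput libraries in duplicate for DMSO and for AVJ16, grouped here as labelled. The samples were prepared in 2 batches from the same thaw, and batch cannot be separated in lists that join both replicates. The authors used cutadapt for trimming, STAR for mapping after reads of repeats had been set aside, and CLIPper for peak calling once PCR duplicates were gone. The −log10 p and the log2 fold enrichment of IP over SMInput are the authors' deposited values, normalized for each treatment separately. The p-value stops at 400 in both lists. Read depth is unknown from the lists. Repeat content, RNA-seq and proteomics were not analysed here.

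The methods name Gencode v19, while the deposited coordinates lie on GRCh38, so genes were taken from GENCODE release 44. A peak over an exon of any transcript of its gene was an exon peak. Introns were numbered on the MANE Select transcript and, outside it, on the coding transcript of longest span. The partner of a peak was the peak of the other list with the largest overlap on its strand. Windows, motifs and folding were read on the strand of the RNA. The pairing, joining, tiling, GC, intron order and motif steps were tested on made-up data, and the assignment of peaks to genes and exons was not. Shares have 95% Wilson intervals and medians order-statistic intervals.

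The members and gene lists were chosen with earlier results of these data known. Named genes are the 4 genes, the next 3 protein-coding genes by DMSO intron peaks, genes over the same introns, pathway genes with an intron peak and, per gene, the most enriched, most enriched shared, most lowered and most raised intron peak. SMYD3, further introns and peaks were named after their values were seen. Tools were RNAfold 2.7.2, pysam 0.24.0, pandas 2.3.3, numpy 2.4.6, scipy 1.17.1, matplotlib 3.10.9 and Python 3.11.15.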

Additional observations from a re-analysis of the deposited data

How the results depend on the processing

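Of 27 alternative values, 17 stayed within the interval of the value in the report, or within 1.5 times for counts, 10 moved and 0 reversed. With only peaks of a log2 fold enrichment of at least 4, the 4 genes held 33 DMSO and 5 AVJ16 intron peaks, 18.2% of the DMSO peaks were shared and the median gap between DMSO sites was 4884 nt, as fewer peaks enter. With a −log10 p of at least 5, 35 AVJ16 intron peaks were left. The GC difference between peaks and windows was 3.48 percentage points with peaks widened by 25 nt, 3.41 against windows within 2000 nt of a peak, 6.00 in MAD1L1, 1.28 in RXRA and 2.62 in ZC3H3. Joining touching peaks, other exon definitions and other overlap rules left the counts and shares within these limits. No paired analysis was possible because each listed peak has 1 value over both replicates, and for the same reason no replicate could be left out. The lists hold nothing below their limits, so the loss of a peak and a small fall below the limit cannot be told apart, and weak peaks carry the counts, since 64.5% of the DMSO intron peaks were below 3.5.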
